A study of Mus musculus with 10 samples.

Results

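Expression of 10 acute phase protein genes was examined in the neonatal pancreas of mice that express IL-23 in keratinocytes. The genes were taken by symbol (Fgl1, Fga, Fgb, Fgg, Saa3, Lcn2, Lbp, Hp, Cp and Hamp), and each of the 10 was found among the 24062 genes listed in the count tables. KSR23 mice carry R23, a cassette for IL-23 (p19 and p40) at ROSA26 that is silent until a loxP-flanked STOP signal is removed, together with Cre recombinase under the K14 promoter, which removes it in keratinocytes. The libraries came from whole pancreas of 5 KSR23 mice, labelled KSR23+, and 5 wild type (WT) mice, all of the C57BL/6 strain and at post natal day 5. The labels do not say whether the WT mice carried R23 or Cre alone, so the groups may differ in both transgenes. The p-values below measure the spread between the libraries that the labels number 1 to 5 in each group.

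Acute phase proteins are plasma proteins whose production changes during infection or injury, and the liver is their best known source. Cytokines of the IL-6 family, and IL-22 on epithelial cells, activate the transcription factor STAT3, which acts on many of these genes together with C/EBP and NF-κB factors. Their products include clotting proteins, lipid carriers, iron binding and iron regulating proteins, and proteins that bind bacterial components. In the pancreas, acinar cells respond to IL-22, and several secreted acute phase proteins have been described in inflamed exocrine tissue.

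Promoter sequence was inspected for the members because STAT3 target genes often carry the palindromic STAT motif TTCNNNGAA, which reads alike on both strands. RefSeq start sites on GRCm38.p6 gave a window of the 250 bases before the start for 7 of the 10 members. Fgl1, Lbp and Hp had no entry. The motif was found in the windows of 3 members, Fga, Fgb and Hamp, and in that of Hamp2, the paralog of Hamp. It was absent from the windows of Fgg, Saa3, Lcn2 and Cp. Over all 32851 windows of the same length, 7.02% held it. The stretches around the matches are shown 5′ to 3′ on the strand of the gene, with the motif in capitals, because the fibrinogen genes were higher in KSR23 mice and Hamp2 was lower, as given below. A match describes the letters of a window and is no evidence of binding. The Fga stretch is chr3:83025903-83025957 on the plus strand, and the motif lies 234 to 226 bases before the start. The Fgb stretch is chr3:83049987-83050055 on the minus strand, with the motif 162 to 154 bases before the start. The Hamp stretch is chr7:30944088-30944156 and the Hamp2 stretch chr7:30924237-30924305, both on the minus strand. Their motifs lie 97 to 89 and 94 to 86 bases before the start. These distances are to the RefSeq starts. For some genes, among them Fga, Lcn2 and Hamp2, those starts differ from the GENCODE gene bounds given below. The Hamp2 stretch and the whole Lcn2 window lie inside the GENCODE bounds of these genes. No printed stretch overlaps an annotated exon. The Hamp and Hamp2 stretches are identical at 61 of 69 bases, the motif included.
Fga: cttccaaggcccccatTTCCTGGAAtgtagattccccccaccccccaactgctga
Fgb: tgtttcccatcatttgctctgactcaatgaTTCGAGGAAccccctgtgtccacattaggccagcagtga
Hamp: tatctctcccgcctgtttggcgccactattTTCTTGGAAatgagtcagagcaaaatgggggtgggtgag
Hamp2: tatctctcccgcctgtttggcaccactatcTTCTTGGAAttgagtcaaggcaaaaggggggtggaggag

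Between 16715976 and 57784136 reads per library were counted on genes, and KSR23 replicate 3 was the smallest library. A count of 3 in a library was taken as the floor of detection for counting error alone. With libraries scaled by their totals alone, it corresponded to 0.0519 to 0.1795 CPM (counts scaled to a common library size). With the scaling given next, which the CPM below use, it was 0.168 CPM in KSR23 replicate 3 and 0.0536 CPM in KSR23 replicate 5. Counts were scaled by the TMM method, and those genes that reached 5 counts in each of the 10 libraries were tested with edgeR's quasi-likelihood test, adjusted by the Benjamini-Hochberg method over 13882 genes. The IL-23 subunit gene Il23a averaged 0.179 ± 0.102 CPM in the WT libraries and 1.07 ± 0.138 CPM in the KSR23 libraries (SD, n = 5 each; p = 0.00794 by a two-sided exact permutation test, which cannot give a smaller p for 5 against 5). Il12b, the gene of p40, was at 0, 0.240, 0.0351, 0.0645 and 0 CPM in WT replicates 1 to 5. In KSR23 replicates 1 to 5 it was at 0.327, 0.0889, 0.168, 0.224 and 0.125 CPM, so the groups overlapped. Krt14 was not called, and Krt5, a partner keratin of keratinocytes, had 0 counts in all 10 libraries. With libraries scaled by their totals alone, the median log2 fold change of all genes moved from -0.01 to 0.09, and 72.6% of the calls were higher in KSR23 mice instead of 52.3%.

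Of the 10 members, 6 passed the filter on low counts, and 5 of these (Fgl1, Lcn2, Lbp, Cp and Hp) were called higher in KSR23 mice, while the sixth, Saa3, was not called. The log2 fold change was above 0 for each of the 6. Among all genes tested, 16.2% were called higher and 14.8% lower. These shares are the background for the counts of called genes in every list below. The libraries of Fgl1, Lcn2, Lbp and Cp did not overlap between the groups, a pattern with every KSR23 library on top that 10.7% of the tested genes showed. Fga, Fgb, Fgg and Hamp had too few counts for the test. The filter asks for counts in every library and so removes genes that are near 0 in WT mice. With no such filter, 8 members were called higher, against 12.0% of 19227 genes, and the additional 3 were Fga, Fgb and Fgg. The direction of each tested member was the same under 4 scalings of the libraries.

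**Figure D1:**
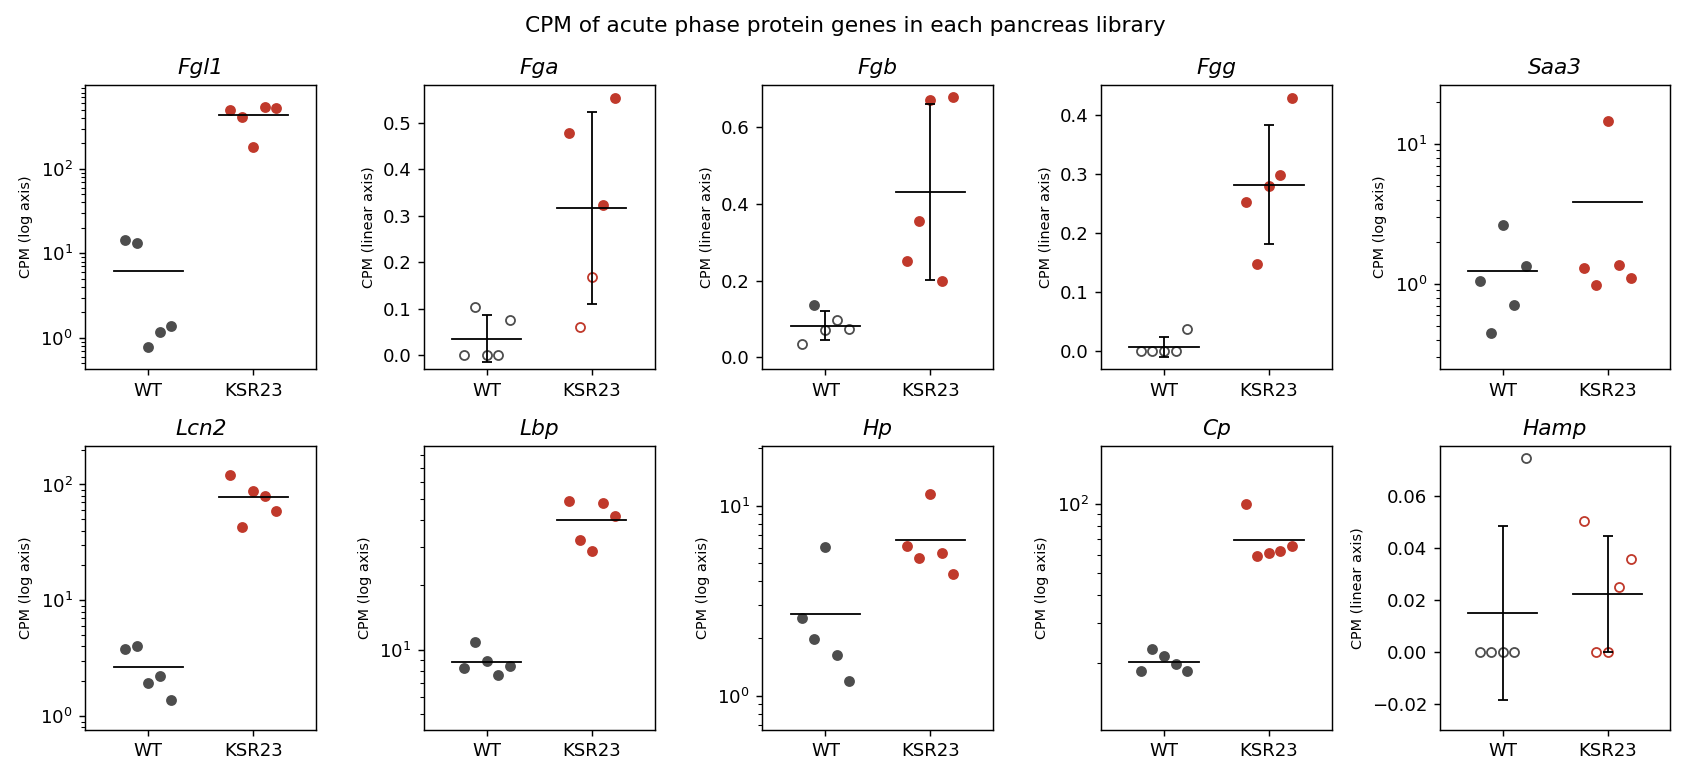
CPM (TMM-scaled library sizes) of each member in the 5 WT (grey) and 5 KSR23 (red) libraries, with a horizontal line at the arithmetic mean and, on the linear axes, bars for the SD. Open circles rest on 3 counts or fewer. Fgl1, Lcn2, Lbp and Cp are separated between the groups, Saa3 is high in 1 KSR23 library only (14.7 CPM), and Hamp rests on 2 counts or fewer in every library.

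Fgl1 encodes fibrinogen-like 1 (hepassocin), a secreted protein made chiefly by hepatocytes that is also a ligand of the T cell receptor LAG-3. The gene lies on chromosome 8 of GRCm38, from 41191434 to 41215156. Its level was 14.5, 13.3, 0.773, 1.16 and 1.38 CPM in WT replicates 1 to 5 and 500.2, 416, 183, 547 and 521 CPM in KSR23 replicates 1 to 5. Every KSR23 library was above every WT library, and the lowest KSR23 value came from replicate 3. WT replicates 1 and 2 stood apart from the other WT mice, with at least 9.62 times their level. The mean rose from 6.22 ± 7.03 to 433 ± 148 CPM (SD, n = 5 each), a log2 fold change of 6.12 (standard error 0.592, edgeR adjusted p = 3.34e-07). This was the 5th largest rise among all genes tested. Without WT replicates 1 and 2, the log2 fold change was 8.62 (edgeR adjusted p = 1.81e-09). The same pair of WT libraries also held more Lcn2 than the other WT libraries, and they held 692 and 729 CPM of the antimicrobial lectin gene Reg3b, against 4.73 to 14.6 CPM in WT replicates 3 to 5. The part of that state of WT replicates 1 and 2 in the spread of Fgl1 was not tested. Lag3, the gene of the LAG-3 receptor, averaged 0.0645 ± 0.0589 CPM (WT) and 0.418 ± 0.124 CPM (KSR23) and was too low for the fit (two-sided exact permutation test, p = 0.00794).

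Fga, Fgb and Fgg encode the alpha, beta and gamma chains of fibrinogen, which are joined into the hexamer that thrombin turns into fibrin. The genes form a cluster on chromosome 3, with Fgg at 83007724 to 83015049, Fga at 83026076 to 83033627 and Fgb at 83040141 to 83049863. Each was close to the floor in WT mice and low, but higher, in KSR23 mice. Fgg had 0, 0, 0, 0 and 1 counts in WT replicates 1 to 5 and 10, 5, 5, 12 and 24 counts in KSR23 replicates 1 to 5. The groups did not overlap, with 0.00745 ± 0.0167 CPM (WT) and 0.281 ± 0.101 CPM (KSR23) (SD, n = 5 each; two-sided exact permutation test, p = 0.00794). The ratio of the pooled and scaled counts was 43.0, with a 95% counting interval from 7.41 to 1728. Exons of Fgg overlap those of Gm30097 on the opposite strand, and reads of such a pair cannot be told apart without strand.

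Fgb had 1, 4, 2, 3 and 2 counts in WT replicates 1 to 5 and 10, 12, 12, 8 and 38 counts in KSR23 replicates 1 to 5. Its mean was 0.0828 ± 0.0377 CPM (WT) and 0.431 ± 0.229 CPM (KSR23), again without overlap (two-sided exact permutation test, n = 5 each, p = 0.00794). The pooled ratio was 5.12 (95% counting interval 2.77 to 10.3). Fga had 0, 3, 0, 0 and 2 counts in WT mice and 19, 2, 3, 13 and 31 counts in KSR23 mice. In CPM, 4 of the 5 KSR23 libraries were above all WT libraries, and KSR23 replicate 2 lay among them. The means were 0.0355 ± 0.0497 and 0.317 ± 0.207 CPM (two-sided exact permutation test, n = 5 each, p = 0.0238), with a pooled ratio of 10.4 (95% counting interval 4.26 to 33.2). In the fit with no filter on low counts, the log2 fold changes were 4.74 for Fgg, 3.10 for Fga and 2.30 for Fgb (edgeR adjusted p = 0.000423, 0.00911 and 0.00581).

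Hepatocyte genes were read beside the fibrinogen genes. Of 20 hepatocyte markers, 4 passed the filter on low counts. F2 (prothrombin, log2 fold change 2.05) and Ambp (0.38) were called higher, Alb was called lower (-0.83) and Apoa1 was not called. The summed level of the list was 85.5 to 103 CPM in WT and 129 to 147 CPM in KSR23 mice, and most of it was Ambp. Several defining markers were at or near 0: Cyp2e1, Hpd and Apoh had 0 counts in all WT libraries and in KSR23 replicates 1 to 4. KSR23 replicate 5 was the largest library and held the most counts of each fibrinogen gene. It had 2 counts of Cyp2e1, 5 of Hpd, 6 of Apoh, 50 of Afp and 153 of Ahsg. The other KSR23 libraries had 2 to 4 counts of Afp and 17 to 42 of Ahsg. Other markers of the list peaked in KSR23 replicate 2, with 7 counts of F9, 44 of Fabp1 and 148 of Apoa1. KSR23 replicate 5 had 0, 5 and 58 counts of these. Without KSR23 replicate 5, the KSR23 means were 0.245 ± 0.0671 CPM for Fgg, 0.369 ± 0.212 CPM for Fgb and 0.257 ± 0.183 CPM for Fga (SD, n = 4), and the exact permutation p-values were 0.0159, 0.0159 and 0.0476. The part of liver RNA in the fibrinogen counts of KSR23 replicate 5 was not tested. In bulk tissue, fewer cells of a type and less RNA per cell cannot be told apart, here and in the results that follow.

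Lcn2 encodes lipocalin 2, which binds bacterial siderophores and so withholds iron from bacteria. The gene is found on chromosome 2, from 32384633 to 32388252. Lcn2 was at 3.79, 4.05, 1.93, 2.23 and 1.38 CPM in WT replicates 1 to 5 and at 120, 42.8, 87.3, 79.5 and 59.3 CPM in KSR23 replicates 1 to 5. The groups were far apart, with the highest WT library at 4.05 CPM and the lowest KSR23 library at 42.8 CPM. The mean rose from 2.67 ± 1.18 to 77.8 ± 29.4 CPM (SD, n = 5 each), a log2 fold change of 4.86 (standard error 0.280, edgeR adjusted p = 3.54e-10) and the 8th largest rise of all genes tested. Neutrophils also store lipocalin 2 in their granules. Of 17 neutrophil markers found in the count tables, 11 were tested, 8 were called higher and 3 were not called, with a median log2 fold change of 2.16 against -0.01 over all genes tested. Their summed level ranged from 18.1 to 50.4 CPM in WT mice and from 58.1 to 488 CPM in KSR23 mice. The neutrophil sum was highest in KSR23 replicate 3, at 488 CPM against at most 118 CPM in the other KSR23 mice, whereas Lcn2 was highest in KSR23 replicate 1. Without KSR23 replicate 3, the log2 fold change of Lcn2 was 4.81, and those of the neutrophil genes S100a8, S100a9 and Ngp were 1.47, 1.54 and 0.81 instead of 2.38, 2.48 and 2.16. The part of neutrophils in the level of Lcn2 was not tested.

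Lbp encodes the lipopolysaccharide binding protein, which carries bacterial endotoxin to CD14 and so to TLR4 and MD-2. It lies on chromosome 2, from 158306493 to 158332852. Its level was 8.24, 10.8, 8.85, 7.65 and 8.42 CPM in WT replicates 1 to 5 and 49.3, 32.5, 28.8, 47.9 and 42.0 CPM in KSR23 replicates 1 to 5. The WT mice lay close together, and the lowest KSR23 library, replicate 3, was well above the highest WT library. Lbp rose from 8.79 ± 1.21 to 40.1 ± 9.15 CPM (SD, n = 5 each), a 4.58-fold increase (log2 fold change 2.19, standard error 0.141, edgeR adjusted p = 1.65e-09).

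The genes that act with the lipopolysaccharide binding protein differed in their calls. Cd14 rose with a log2 fold change of 1.85 (standard error 0.128, edgeR adjusted p = 4.46e-09), and Tlr2 and Icam1 rose by 1.31 and 1.49 on the log2 scale. Tlr4 (0.43, adjusted p = 0.135) and Ly96, which encodes MD-2 (-0.13, adjusted p = 0.63), were not called by edgeR. Over the list of 20 receptors and partners of the member proteins, 18 were tested, 7 were called higher, 1 was called lower (Itgb3, -0.52) and 10 were not called, with a median log2 fold change of 0.36. The lipocalin 2 receptor genes Slc22a17 (-0.12) and Lrp2 (-0.76) and the haptoglobin receptor gene Cd163 (-0.03) were not called, with edgeR adjusted p-values of 0.302, 0.0763 and 0.902.

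**Figure D2:**
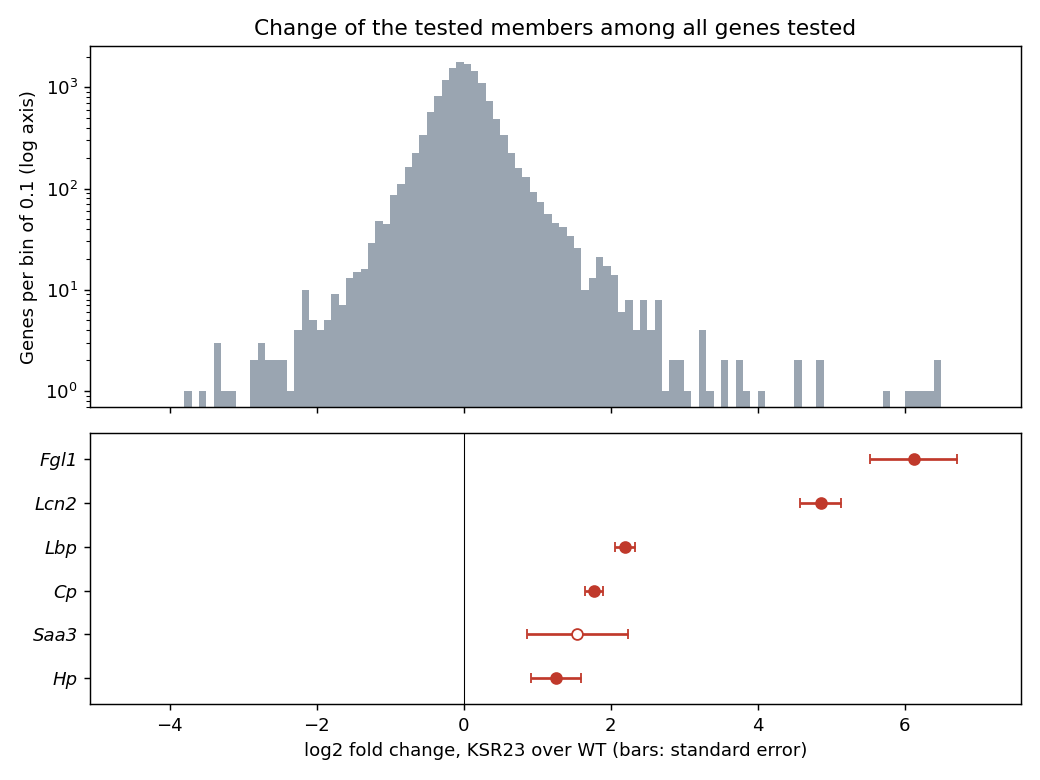
Top, number of genes per bin of 0.1 log2 fold change (log axis) for the 13882 genes tested. Bottom, log2 fold change of KSR23 over WT with its standard error for the 6 tested members, filled where the adjusted p was under 0.05. Fgl1 (6.12) and Lcn2 (4.86) sit at the far right of all genes, and Saa3 (1.54) has the widest standard error of the 6.

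Cp encodes ceruloplasmin, the copper ferroxidase of plasma that oxidizes iron for loading onto transferrin. The gene lies on chromosome 3, from 19957054 to 20009145, and shares exon sequence with Hps3 on the opposite strand. Cp was at 18.6, 23.2, 21.6, 19.9 and 18.4 CPM in WT replicates 1 to 5 and at 100.1, 59.0, 60.9, 62.4 and 65.3 CPM in KSR23 replicates 1 to 5. The KSR23 libraries were all above the WT libraries, and replicate 1 exceeded the other 4 KSR23 libraries, which lay within 59.0 to 65.3 CPM. The mean rose from 20.4 ± 2.04 to 69.5 ± 17.2 CPM (SD, n = 5 each), a 3.42-fold increase (log2 fold change 1.77, standard error 0.127, edgeR adjusted p = 7.31e-09). Without KSR23 replicate 1 the log2 fold change was 1.60.

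Hp encodes haptoglobin, which binds free hemoglobin for clearance through CD163. It is located on chromosome 8, from 109575128 to 109579172. Its level was 2.56, 1.99, 6.08, 1.65 and 1.19 CPM in WT replicates 1 to 5 and 6.12, 5.27, 11.5, 5.60 and 4.36 CPM in KSR23 replicates 1 to 5. The groups overlapped through WT replicate 3, which exceeded 3 of the 5 KSR23 libraries, and KSR23 replicate 3 was the highest of all. Hp rose from 2.69 ± 1.96 to 6.56 ± 2.82 CPM (SD, n = 5 each), a log2 fold change of 1.26 (standard error 0.342, edgeR adjusted p = 0.00965). Without WT replicates 1 and 2 together it was no longer called (1.12, adjusted p = 0.0716), while without WT replicate 3 it was 1.79 (edgeR adjusted p = 0.000139).

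Saa3 encodes serum amyloid A3, the amyloid A form produced mainly outside the liver, by macrophages, adipocytes and epithelia. The gene lies on chromosome 7, from 46711998 to 46715700. Its level was 1.05, 0.446, 2.63, 0.710 and 1.34 CPM in WT replicates 1 to 5 and 1.31, 0.978, 14.7, 1.37 and 1.11 CPM in KSR23 replicates 1 to 5. Only KSR23 replicate 3 was above all WT libraries, and the other 4 KSR23 libraries lay within the range of the WT mice. The means were 1.24 ± 0.851 and 3.88 ± 6.02 CPM (SD, n = 5 each). The log2 fold change of 1.54 was not called (standard error 0.686, edgeR adjusted p = 0.0963), and it was -0.05 without KSR23 replicate 3. Saa3 was called by the likelihood ratio test (1.64, adjusted p = 0.0392) and with the replicate number as a block (0.97, adjusted p = 0.0462), both of which include KSR23 replicate 3. The other amyloid A genes had counts near 0, with at most 3 counts of Saa1 and 7 of Saa2 in any library and 0 of Saa4. Reads that align to more than 1 place were not counted on genes. Sequence shared between Saa1, Saa2 and Saa4 was not checked, so these counts may fall short of their expression.

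The libraries that were highest for Saa3 and Hp within their group were replicate 3 of the WT mice and replicate 3 of the KSR23 mice, and the markers of other cells differed between these libraries. KSR23 replicate 3 held the highest summed level of neutrophil markers (488 CPM, against 18.1 to 118 CPM elsewhere) and of erythroid markers (215 CPM, against 23.3 to 105 CPM elsewhere). Of the 9 erythroid markers found in the count tables, 4 had 0 counts in every library and add nothing to that sum. WT replicate 3 held the highest sum of adipocyte markers, at 265 CPM against 115 to 195 CPM in the other WT mice, while its neutrophil sum of 26.2 CPM was below that of 3 other WT mice. The adipocyte sum was lower in the KSR23 mice, at 42.3 to 115 CPM, and the defining adipocyte marker Adipoq had 0 counts in KSR23 replicates 3 and 5. Of 12 adipocyte markers, 3 were tested, of which Fabp4 was called lower (log2 fold change -1.33) and 2 were not called. Of 12 macrophage markers tested, 8 were called higher and 1 lower, with sums of 433 to 530 CPM in WT and 458 to 743 CPM in KSR23 mice. The part of these cells in the levels of Saa3 and Hp was not tested.

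**Figure D3:**
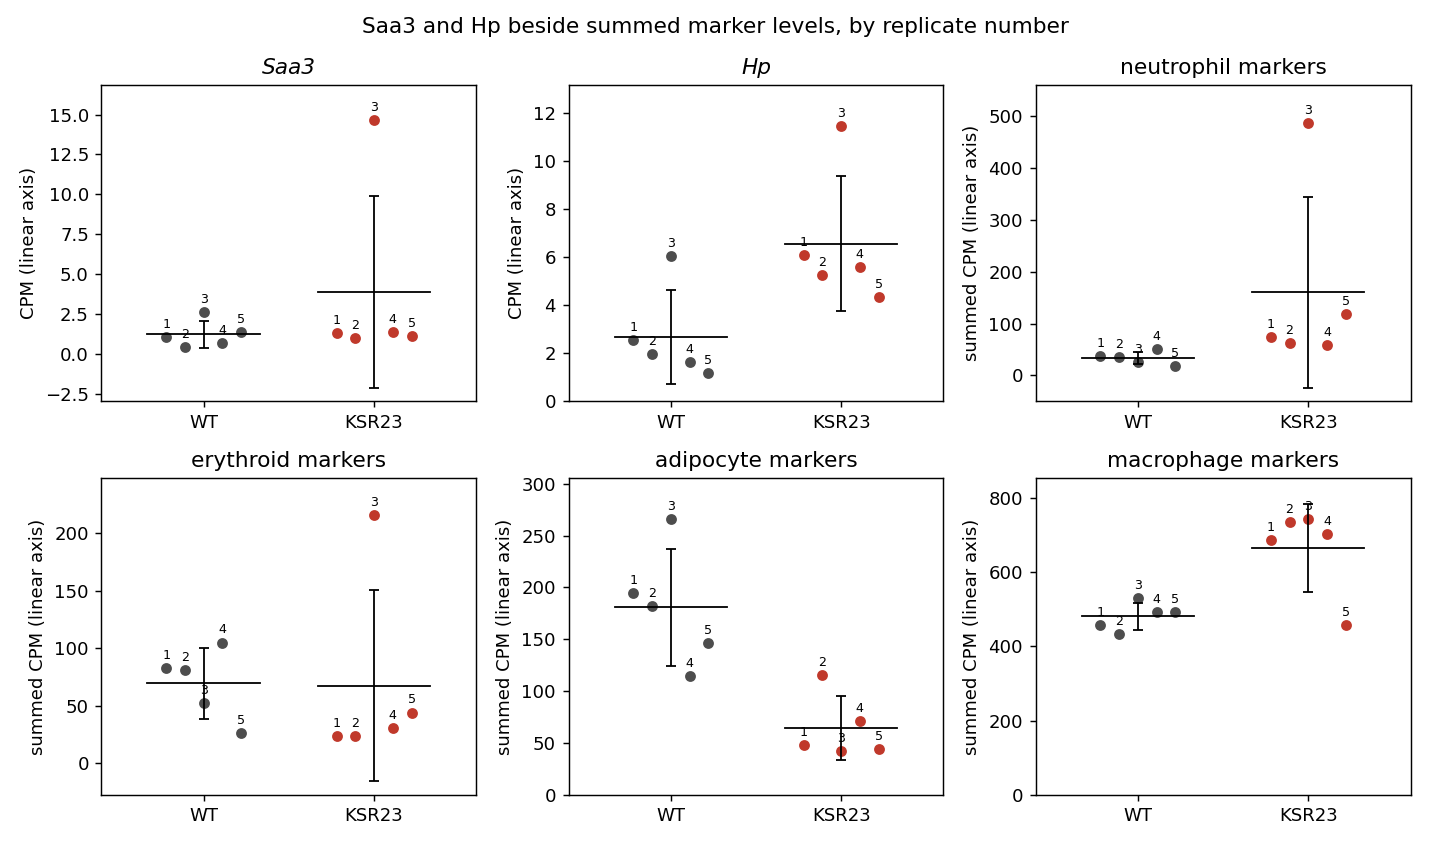
CPM of Saa3 and Hp and summed CPM of 4 marker lists in each library (linear axes), with the replicate number over each point, lines at the mean and bars for the SD of 5 libraries. KSR23 replicate 3 is highest for Saa3 (14.7 CPM), Hp (11.5 CPM), neutrophil markers (488 CPM) and erythroid markers (215 CPM), and WT replicate 3 is the highest WT library for Saa3, Hp and adipocyte markers.

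Hamp encodes hepcidin, the liver hormone that removes the iron exporter ferroportin from cell surfaces, and Hamp2 is its neighbor and paralog in the mouse. Hamp lies on chromosome 7 from 30942368 to 30944032 and Hamp2 from 30922372 to 30924681. Hamp had 0, 0, 0, 0 and 2 counts in WT replicates 1 to 5 and 2, 0, 0, 1 and 2 counts in KSR23 replicates 1 to 5. These counts are below the floor in every library, and a difference in Hamp was not detectable at this depth (two-sided exact permutation test of CPM, n = 5 each, p = 0.683). Hamp2, by contrast, was at 17.2, 12.6, 11.9, 20.2 and 16.9 CPM in WT mice and at 1.21, 1.30, 2.07, 1.77 and 1.36 CPM in KSR23 mice. All KSR23 libraries were below all WT libraries. Hamp2 fell from 15.8 ± 3.49 to 1.54 ± 0.365 CPM (SD, n = 5 each), which is 10.5-fold lower (log2 fold change -3.39, standard error 0.179, edgeR adjusted p = 1.08e-10). Of the 336 windows of 75 bases in the Hamp transcript, 96.1% occur in no other annotated gene, and the remainder are shared with Hamp2, so most reads of the pair can be assigned. Exons of Hamp2 overlap Gm44662 on the opposite strand.

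Iron handling genes were examined beside Hamp and Cp. Of 24 listed, 22 were tested, 7 were called higher, 4 were called lower and 11 were not called. The shares called higher and lower were 31.8% and 18.2%, against 16.2% and 14.8% of all genes tested. The median log2 fold change was 0.02, against -0.01 over all genes tested. The genes called lower were Hamp2, the transferrin receptor gene Tfrc (-0.58), the iron regulatory protein gene Ireb2 (-0.39) and the ferroportin gene Slc40a1 (-0.35). Slc40a1 and Ireb2 were not called when libraries were scaled by their totals alone (edgeR adjusted p = 0.0767 and 0.158), and Ireb2 also lost its call without any of WT replicates 2, 3 and 4 or KSR23 replicates 4 and 5, and with the replicate number as a block (-0.40, adjusted p = 0.0584). Those with the largest rises were Ltf (lactoferrin, 2.71), Tmprss6 (matriptase-2, a hepcidin suppressor, 1.54), Slc39a8 (a metal importer, 1.33) and Atoh8 (1.03). Lactoferrin is a neutrophil granule protein, and without KSR23 replicate 3 the log2 fold change of Ltf was 1.59. The ferritin genes Fth1 (-0.15) and Ftl1 (-0.06) were not called (edgeR adjusted p = 0.14 and 0.569).

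Levels of different members were compared per kilobase of the principal transcript (CPM per kb). Per kb, the WT order by median was Cp (4.94), Lbp (3.34), Lcn2 (2.43), Saa3 (1.90), Hp (1.48) and Fgl1 (1.23), and the fibrinogen genes and Hamp were at or below 0.0196. Cp was above Lbp in all 5 WT libraries, with ranges that did not overlap. From Lbp down to Fgl1 the ranges of neighbors in this order overlapped, so those neighbors were not separated beyond their spread. In KSR23 mice the order was Fgl1 (447), Lcn2 (86.9), Lbp (16.6), Cp (15.5), Hp (4.17) and Saa3 (2.36), followed by Fgg (0.165), Fga (0.125), Fgb (0.0933) and Hamp (0.0607), whose ranges overlapped from each to the next. Fgl1 was above Lcn2, and Lcn2 above Lbp, in 5 of 5 KSR23 libraries without overlap, while Lbp and Cp overlapped and Lbp was the higher of the pair in 2 of 5 libraries. Hp and Saa3 overlapped as well, with Hp higher in 4 of 5 libraries.

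The makeup of the summed level therefore shifted toward a single gene. The sum of the 10 members was 32.4 to 54.0 CPM in WT and 387 to 778 CPM in KSR23 mice. Per kb, Fgl1 made up 21.1% ± 20.3 of the sum in WT mice, with a range of 3.29% to 45.1%, and 73.0% ± 13.2 in KSR23 mice, with a range of 50.9% to 82.2% (SD, n = 5 each). Cp made up 25.9% ± 8.08 in WT mice and 3.45% ± 0.883 in KSR23 mice. The lowest Fgl1 share among KSR23 mice was that of replicate 3, where Lcn2 and Saa3 took 29.8% and 8.24%.

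**Figure D4:**
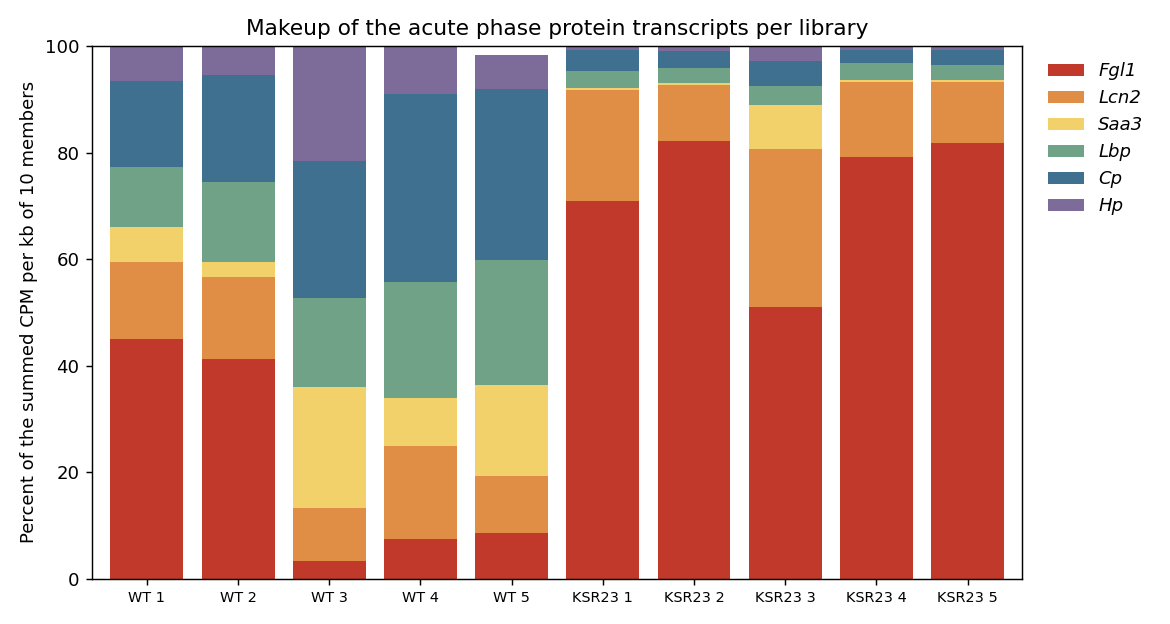
Percent of the summed CPM per kb of the 10 members held by the 6 most abundant of them, in each library (the other 4 members fill the small remainder). Fgl1 takes 50.9% to 82.2% in KSR23 libraries, and in WT libraries it reaches 41.3% and 45.1% in replicates 2 and 1 and at most 8.66% in the others.

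Ratios within a library tell whether the members changed by different amounts, independent of the scaling. The log2 ratio was compared between the groups for all 15 pairs of the 6 tested members with two-sided exact permutation tests, adjusted by the Benjamini-Hochberg method over the 15. Fgl1 rose more than Lcn2 (log2 ratio 0.29 ± 1.46 in WT mice and 2.46 ± 0.913 in KSR23 mice, exact permutation test, n = 5 each, adjusted p = 0.0476). Lcn2 rose more than Lbp by 2.70 on the log2 scale, and Lbp more than Cp by 0.42 (exact permutation tests, n = 5 each, adjusted p = 0.017 for both). The differences of Cp against Saa3 (0.86), of Cp against Hp (0.33) and of Saa3 against Hp (-0.53) did not pass the threshold (exact permutation tests, adjusted p = 0.403, 0.5 and 0.459). Of the 15 ratios, 10 had an adjusted p under 0.05, and the remaining 5 involved Saa3 or Hp.

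For each tested member, the gene with the nearest profile over the 10 libraries was found by the root mean square difference of log2 CPM, after each gene was centered on its mean. The nearest gene was Lrg1 for Fgl1 (0.895), C4b for Lcn2 (0.435), Sbno2 for Lbp (0.17), Sema3f for Cp (0.155), Itgb7 for Hp (0.439) and Retnlg for Saa3 (0.73). Lrg1 encodes a secreted leucine-rich glycoprotein of the acute phase, C4b a complement component and Retnlg a resistin-like protein of neutrophils. Since the profiles span both groups, this distance is set mostly by the size of the difference between them. The log2 fold changes of these genes were 6.01, 4.50, 2.07, 1.58, 1.33 and 1.91 in the same order.

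Other genes listed as positive acute phase protein genes, held to rise in the acute phase but not all in every report, moved in both directions. Of 35 listed, 19 were tested, 9 were called higher, 3 lower and 7 were not called, with a median log2 fold change of 0.92 against -0.01 over all genes tested. The largest rises were those of Lrg1, from 3.20 ± 2.27 to 206 ± 115 CPM, Il1rn (the IL-1 receptor antagonist, log2 fold change 4.57), C4b (4.50) and Itih4 (an inter-alpha-trypsin inhibitor heavy chain, 3.81), with edgeR adjusted p-values of 8.91e-09, 1.31e-11, 8.84e-13 and 1.86e-11. Without WT replicates 1 and 2, the log2 fold change of Lrg1 was 7.05 instead of 6.01. The zinc-binding metallothionein genes Mt1 and Mt2 fell, with log2 fold changes of -1.90 and -1.79, as did Nnmt (-0.49), whose call was lost without WT replicate 3 and with libraries scaled by their totals. The pentraxin genes Crp (-0.23, adjusted p = 0.397) and Apcs (-0.38, adjusted p = 0.0709) were not called by edgeR.

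Genes listed as negative acute phase protein genes, held to fall in the acute phase but not all in every report, moved in both directions. Of 18 listed, 9 were tested, 5 were called lower, 2 higher and 2 were not called, with a median log2 fold change of -0.83. Vtn (vitronectin, which is not a negative reactant in every report, -3.39), Ttr (transthyretin, -2.09), Gc (vitamin D binding protein, -1.78) and Itih2 (-0.88) fell. Alb (albumin) was called lower at -0.83 (edgeR adjusted p = 0.0186), and lost this call without WT replicate 1 (adjusted p = 0.0503) and without WT replicates 1 and 2 together (-0.68, adjusted p = 0.12). Trf, the transferrin gene, rose from 129 ± 12.3 to 495 ± 143 CPM (log2 fold change 1.95), and Rbp4, the retinol binding protein gene, rose by 0.99 on the log2 scale. Ttr and Gc are also products of pancreatic endocrine cells, and of 16 islet markers 9 were called lower and 2 higher, with summed levels of 8429 to 11721 CPM in WT and 5360 to 6835 CPM in KSR23 mice. The part of islet cells in these falls was not tested. The other 9 genes of the list were too low in some library for the test. Of these, 4 were higher in every KSR23 library than in every WT library. Among tested genes 10.7% showed that pattern, and its share among genes below the filter was not computed. Ahsg (fetuin-A) averaged 0.238 ± 0.0819 CPM (WT) and 1.22 ± 0.864 CPM (KSR23), and Kng1 0.244 ± 0.136 CPM (WT) and 0.696 ± 0.281 CPM (KSR23), and Fetub and Kng2 were higher as well (two-sided exact permutation tests, n = 5 each, p = 0.00794 for each of the 4). None of the 9 was lower without overlap, and the exact p-values of the remaining 5 were 0.27 to 1.

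Genes of the cytokine signaling that acts on acute phase genes were mostly higher where they were called. Of 41 listed, 33 were tested, 18 were called higher, 2 lower and 13 were not called, with a median log2 fold change of 0.33. The STAT3 feedback gene Socs3 rose from 10.2 ± 1.25 to 63.8 ± 18.0 CPM (log2 fold change 2.65, standard error 0.153, edgeR adjusted p = 3.80e-10). The NF-κB cofactor genes Bcl3 and Nfkbiz rose by 2.27 and 1.87 on the log2 scale, and Osmr, the oncostatin M receptor gene, by 1.47. Stat3 itself rose from 53.1 ± 5.21 to 115 ± 10.9 CPM (1.12), and Cebpb and Cebpd, which encode C/EBP factors of the acute phase, rose by 1.22 and 1.04.

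Among the receptor genes, Il10rb, which encodes the shared chain of the IL-22 receptor, rose slightly (0.32). Il22ra1, which encodes the other chain of the IL-22 receptor, was not called (-0.44, edgeR adjusted p = 0.0769). It was called lower without KSR23 replicate 1 (-0.64, adjusted p = 0.0069). Il6st, the gp130 gene, was called at 0.24 and lost its call without WT replicate 1, WT replicate 4, KSR23 replicate 4 or WT replicates 1 and 2 together (adjusted p up to 0.119). Lifr (-0.53) and Foxa2 (-0.41), a liver and pancreas transcription factor gene, were lower, and Foxa2 was not called without WT replicates 1 and 2 (adjusted p = 0.0503).

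The cytokine genes themselves were at low levels. Lif passed the filter and rose from 1.06 ± 0.175 to 1.88 ± 0.305 CPM (SD, n = 5 each; log2 fold change 0.82, edgeR adjusted p = 0.0088), and Osm was tested and not called (0.73, edgeR adjusted p = 0.21). Below the filter, Il1b averaged 0.276 ± 0.180 CPM (WT) and 1.49 ± 0.354 CPM (KSR23), and Tnf 0.0837 ± 0.137 CPM (WT) and 0.648 ± 0.215 CPM (KSR23), both with every KSR23 library above every WT library (two-sided exact permutation tests, n = 5 each, p = 0.00794). Il6 averaged 0.111 ± 0.170 CPM (WT) and 0.194 ± 0.117 CPM (KSR23), with p = 0.405 in the same exact test. Il22 had 1 count over the WT libraries and 1 to 3 counts in each KSR23 library (exact permutation test, p = 0.0159), which is at or below the floor. Il1a, Il11 and Il17a had exact permutation p-values of 0.437, 0.381 and 1.

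**Figure D5:**
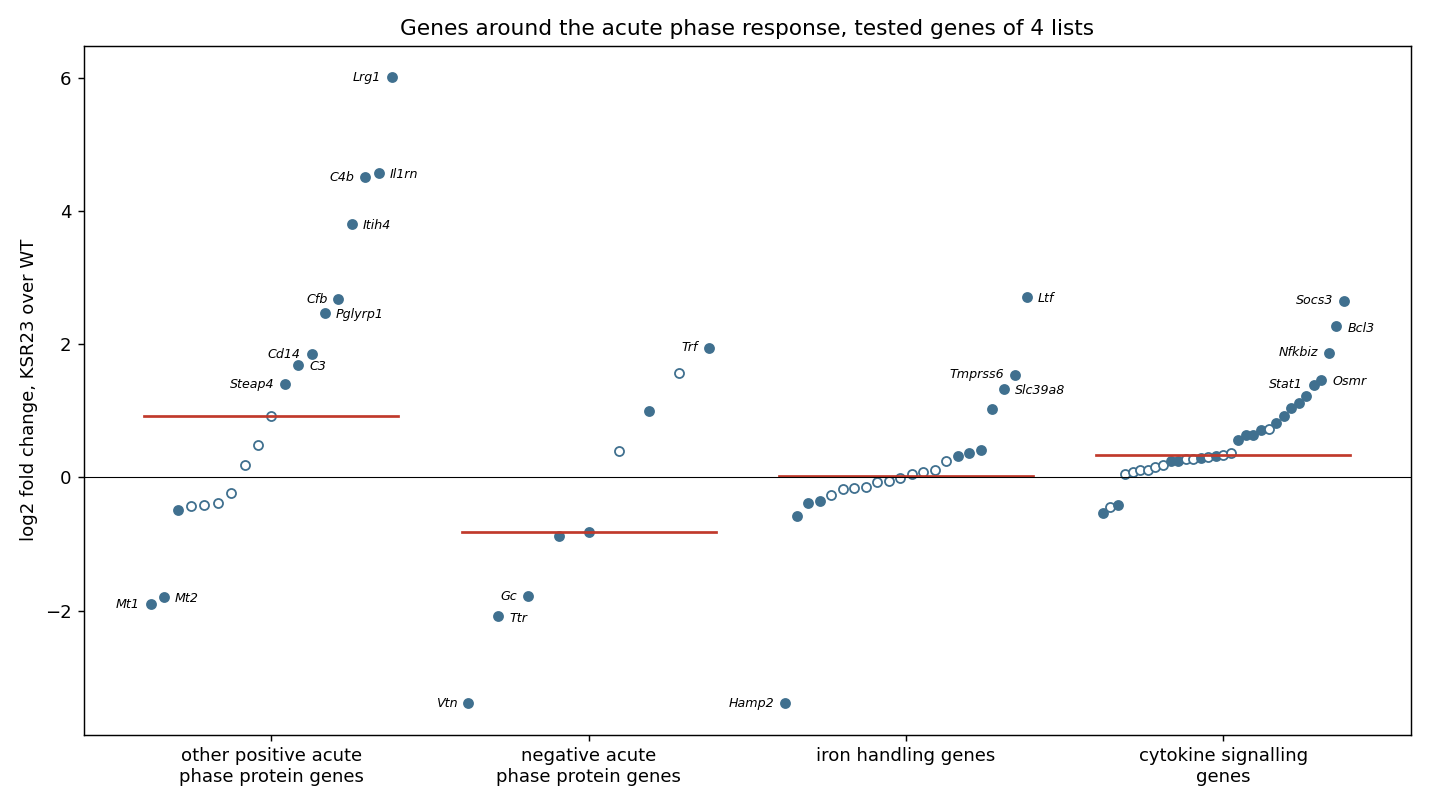
Log2 fold change of KSR23 over WT for each tested gene of 4 lists, ordered within its list, filled where the adjusted p was under 0.05, with a red line at the median of the list. Lrg1 (6.01) tops the other positive acute phase protein genes, Vtn (-3.39) is lowest among the negative ones, and Hamp2 (-3.39) stands apart from the other iron handling genes.

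The labelled tissue was checked against its markers. Acinar markers summed to 299100 to 322129 CPM in WT and 194586 to 243276 CPM in KSR23 mice, and 12 of 16 were called lower and 2 higher. Of 14 duct markers, 12 were called higher and 2 were not called, with sums of 1824 to 1975 CPM in WT and 2931 to 3219 CPM in KSR23 mice. Mesothelial markers (11 tested, 2 higher and 2 lower), stromal markers (10 tested, 1 higher and 3 lower) and erythroid markers (5 tested, 5 not called) were mostly not called. Of 10 endothelial markers tested, 3 were called higher, 2 were called lower and 5 were not called. Two-sided exact permutation tests of the summed levels (n = 5 each) gave p = 0.00794 for the mesothelial list, at 534 to 609 CPM in WT and 738 to 959 CPM in KSR23 mice, and for the endothelial list, at 400 to 418 CPM in WT and 425 to 469 CPM in KSR23 mice. The mesothelial list holds C3 and Krt8, which also stand in the acute phase and duct lists. Stromal sums were 8301 to 10397 CPM in WT and 7514 to 9774 CPM in KSR23 mice (exact permutation test, p = 0.294). Which cells of the pancreas hold the acute phase transcripts cannot be read from whole tissue. The part of the changed marker sums (acinar, duct, mesothelial, endothelial and neutrophil) in the member genes was not tested.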

How the data were processed

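The 10 pancreas libraries (5 WT and 5 KSR23 mice) were made by the authors from 100 pg of total RNA each, primed with oligo-dT (SMART-Seq v4) and amplified with 15 cycles of PCR and a further 12 after Nextera XT tagmentation. Reads of 75 bp from single ends were mapped to mm10. The submitters' processing notes list FastQC, TopHat2 2.1.0, HTSeq 0.6.1p1 and edgeR 3.18.1. The authors deposited raw counts per gene, with no normalization, taken by strict intersection with protein-coding transcript models. The annotation and strand setting are not given in the sources used here. The 5 tallies at the end of each file (reads with no feature, ambiguous, not unique and the like) were kept out. They hold 53.4% to 57.2% of the total in WT libraries and 42.3% to 46.1% in KSR23 libraries. The share thus differed between the groups without overlap, and its part in the CPM was not tested. No molecular identifiers were used, so intervals and floors cover counting error only.

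Groups and replicate numbers came from the sample titles. Genes that reached 5 counts in each of the 10 libraries were tested in R 4.3.3 with edgeR 4.0.16 (TMM, quasi-likelihood F test, Benjamini-Hochberg adjustment, called under an adjusted p of 0.05). The standard error was taken from the log2 fold change and its F statistic. CPM use TMM-scaled library sizes, and log2 CPM a prior count of 2. For single values, a two-sided exact permutation test ran over the 252 splits of 10 mice into 5 and 5. The script was tested on simulated data. Positions, principal transcripts and 75-base windows are those of GENCODE M21 (GRCm38), and promoter windows are from RefSeq.

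The members and the gene lists were chosen with earlier results of these data known. Named outside the members were, per list, up to 4 called genes with the largest change in each direction, a set of signaling genes and defining markers, and the gene nearest in profile to each tested member. Other genes were named after their values were seen: Crp, Apcs, Fth1, Ftl1, Slc22a17, Lrp2, Lag3, Reg3b, Tlr4, Ly96, Il6, Il22, Lif, Osm, Il1a, Il1b, Il11, Il17a, Tnf, Kng1, the other amyloid A genes, the low liver genes and those of the closing observations. Alternatives were RLE size factors, library totals alone, TMM without the 50 highest genes, other filters, the likelihood ratio test, DESeq2 1.42.0, the replicate block and leaving out libraries. Between libraries of a group the chi-square per degree of freedom was at least 11.4, so none was a copy of another.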

Additional observations from a re-analysis of the deposited data

Results flagged for a closer look

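Of 54 groups of 5 values examined, 9 held a library far from the other 4. For independent and normally distributed values, chance gives about 1 in 20 groups, or 2.7. The groups here share libraries, and a single count among zeros is always flagged, so 9 cannot be weighed against 2.7. Among the members, Saa3 stood at 14.66 CPM in KSR23 replicate 3, against 0.978 to 1.37 CPM in the other KSR23 mice. Hp stood at 6.076 CPM in WT replicate 3, against at most 2.56 CPM in the other WT mice, and at 11.47 CPM in KSR23 replicate 3, against at most 6.12 CPM in the other KSR23 mice. Cp stood at 100.1 CPM in KSR23 replicate 1, against 59.0 to 65.3 CPM. Fgg at 0.03726 CPM and Hamp at 0.07452 CPM in WT replicate 5 rest on 1 and 2 counts, against 0 in the other WT mice.

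Among the marker lists, KSR23 replicate 3 held 215.5 CPM of erythroid markers, against 23.3 to 44.2 CPM in the other KSR23 mice, and 487.7 CPM of neutrophil markers, against 58.1 to 118 CPM. KSR23 replicate 5 held 457.9 CPM of macrophage markers, against 687 to 743 CPM. KSR23 replicate 3 was also the smallest library, and it accounts for 4 of the 9 values.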

How the results depend on the processing

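Fgl1, Lcn2, Lbp and Cp kept their direction and their call in all 19 alternatives, with log2 fold changes of 5.83 to 8.62, 4.64 to 5.38, 2.11 to 2.29 and 1.60 to 1.87. Hp ranged from 0.99 to 1.79 and lost its call only without WT replicates 1 and 2 together. With no filter on low counts, 8 members were called higher instead of 5. The count of members called higher was 5 with any single library left out, 4 without WT replicates 1 and 2, and 6 with the likelihood ratio test and with the replicate block.

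Saa3 turned to -0.04702 without KSR23 replicate 3, and its log2 fold change ranged from -0.04702 to 2.03. DESeq2 gave no adjusted p for Saa3, so that comparison is missing. Uncalled values near 0 changed sign: Krt14 was at -0.04234 without WT replicate 2 and -0.03295 without WT replicates 1 and 2, and with single libraries left out it ranged up to 0.2944. The mesothelial marker Msln was at -0.02416 without WT replicate 4, -0.01596 without KSR23 replicate 3 and -0.03900 without KSR23 replicate 4, with a highest single-omission value of 0.08831. The cause was not tested.

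Over all genes tested, the correlation of same-numbered libraries, each taken as its deviation from the group mean, was between -0.11 and 0.066. Only number 2 correlated best with its own. With 5 libraries per group, this cannot exclude a litter or batch shared by same-numbered libraries, which the labels do not give. With the replicate number as a block, 1998 genes were called higher and 1751 lower instead of 2250 and 2049, and Saa3 was called (0.97). The edgeR adjusted p of Hp was 2.78e-05 with the block (log2 fold change 1.41) and 0.00965 without it. Depth limits Fga, Fgb, Fgg and Hamp, of which no library held more than 38 counts.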

Other observations

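Several genes of the acute phase and liver lists had too few counts in WT mice for the test, as the fibrinogen genes did, and were clearly higher in KSR23 mice. They were chosen after their values were seen. Fetub, which encodes fetuin-B, an inhibitor of metalloproteases, was at 0.475 ± 0.272 CPM (WT) and 9.34 ± 1.51 CPM (KSR23; SD, n = 5 each; two-sided exact permutation test, p = 0.00794). Kng2, a kininogen gene, was at 0.237 ± 0.249 and 14.0 ± 3.79 CPM (exact permutation test, n = 5 each, p = 0.00794), with at most 18 counts in a WT library and at least 160 in a KSR23 library. The protease inhibitor genes Serpina3n and Pzp stand in the list of other positive acute phase protein genes. They were at 0.148 ± 0.163 against 2.14 ± 0.580 CPM and at 0.0476 ± 0.0549 against 0.743 ± 0.201 CPM (exact permutation tests, n = 5 each, p = 0.00794 for both). Fetub and Kng2 stand in the list of negative acute phase protein genes, of whose tested members 5 were called lower and 2 higher. The tests named here were not adjusted for the number of genes inspected.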
